A study of Drosophila mettleri with 18 samples.

Results

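Larvae of the Sonoran population of the fly Drosophila mettleri were compared on saguaro cactus and on lab food. The comparison rests on 6 of the 18 libraries of the series, chosen from their labels: 3 of Sonoran larvae on saguaro and 3 of Sonoran larvae on lab food (Drosophila 4-24 Instant food). Replicates 1, 2 and 3 are the strains named T-22, T-27 and T-28, which each gave 1 library per food, so the strains pair the foods. Every library was made from 10 pooled larvae that were 8 days old and in the third instar. The other 12 libraries, used to estimate the spread and for a few comparisons, are the same Sonoran strains on coastal prickly pear cactus and larvae from Santa Catalina Island (C-M, C-7 and C-9 as replicates 1, 2 and 3) on saguaro, prickly pear and lab food. The labels give no genotype beyond the strain. Nothing in them says that a strain was sampled more than once per food, so p-values measure strain and pool differences mixed together. No marker of larvae or of a tissue could be checked, because the deposited table names assembled genes only by assembly numbers.

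Drosophila mettleri breeds in soil soaked by the juice of rotting columnar cacti, saguaro among them in the Sonoran Desert. Juices of such cacti carry alkaloids and other compounds toxic to many other flies. Insects generally meet plant toxins with enzymes that oxidise, conjugate and export them, and change gut digestive enzymes with diet. None of these gene families can be recognised here, so features (assembled genes) are described by their levels, their assembly component and their behaviour across libraries. Features that share a component number, such as comp34213_c0 and comp34213_c1, can be versions or near copies of a gene that share reads.

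Totals ran from 6769906 to 12035169 counts in the saguaro libraries, against 14088314 to 16115982 in the lab food libraries, with the T-27 saguaro library the shallowest of all 18. Levels are in CPM, counts brought to a common library size, with TMM factors that adjust that size by a trimmed mean of ratios. They are not per transcript length and are compared within a feature. Exceptions are the ratio of a pair and the abundance classes, which length also affects. The TMM factors were 0.877 to 1.09 on saguaro and 0.768 to 0.824 on lab food. The median log2 fold change of all features was 0.08 on this scale and 0.36 with library totals alone, so every direction below is relative to the TMM scale. A single library outside the comparison stood apart: the C-M saguaro library had a count for 11886 features, against 13758 to 14725 in the other 17.

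Food separated the 6 libraries. On the first principal component of log2 CPM, which held 50.8% of the variance, the saguaro libraries lay at 38.5 to 54.2 and the lab food libraries at -59.8 to -34.7. The second component, with 21.2%, spread the saguaro libraries among themselves, T-27 at -52.3 and T-28 at 47.8. The median SD of log2 CPM within the group was 0.32 on saguaro and 0.27 on lab food. Strains also responded alike. Across 12514 features, the log2 ratios of saguaro to lab food had r = 0.503 between T-22 and T-27, 0.627 between T-22 and T-28 and 0.474 between T-27 and T-28. These pairs share no library, but features are not independent replicates.

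On saguaro 3 features rose and 0 fell when the spread was estimated from all 18 libraries, with 0.024% of 12514 tested being called (edgeR quasi-likelihood test, Benjamini-Hochberg adjusted p below 0.05). An unadjusted p under 0.05 was reached by 2370 features. DESeq2 called 130 higher and 143 lower.

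comp34213_c0 had 187, 149 and 165 CPM in the saguaro libraries of T-22, T-27 and T-28, against 17.5, 26.8 and 11.3 CPM in their lab food libraries. Every saguaro library lay far above every lab food library. The log2 fold change was 3.18 (SE 0.45, adjusted p = 0.0218, edgeR), a 9.04-fold rise. Its partner comp34213_c1 had 51.8, 37.2 and 46.3 CPM on saguaro, against 4.52, 7.05 and 3.34 CPM on lab food. It rose by the same log2 3.18 (SE 0.46, adjusted p = 0.0218, edgeR). The pair moved as a unit: comp34213_c0 carried 3.57 to 4.00 times the CPM of comp34213_c1 on saguaro, 3.38 to 3.87 times on lab food, and 3.04 to 4.00 times over all 18 libraries. Whether the pair is a single gene cannot be read from the files. With strain as a replicate block the adjusted p of each was 0.0590 (edgeR), so both calls were lost there.

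comp38692_c0 had 176, 229 and 242 CPM on saguaro, against 65.8, 72.5 and 85.2 CPM on lab food in T-22, T-27 and T-28. This was the smallest of the 3 called changes and the most even between strains, with log2 ratios between 1.42 and 1.66. The log2 fold change was 1.53 (SE 0.21, adjusted p = 0.0218, edgeR), and 1.53 with the replicate block (adjusted p = 0.0385, edgeR). The other feature of this component, comp38692_c1, had a log2 fold change of -0.33 (adjusted p = 0.249, edgeR).

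**Figure D1:**
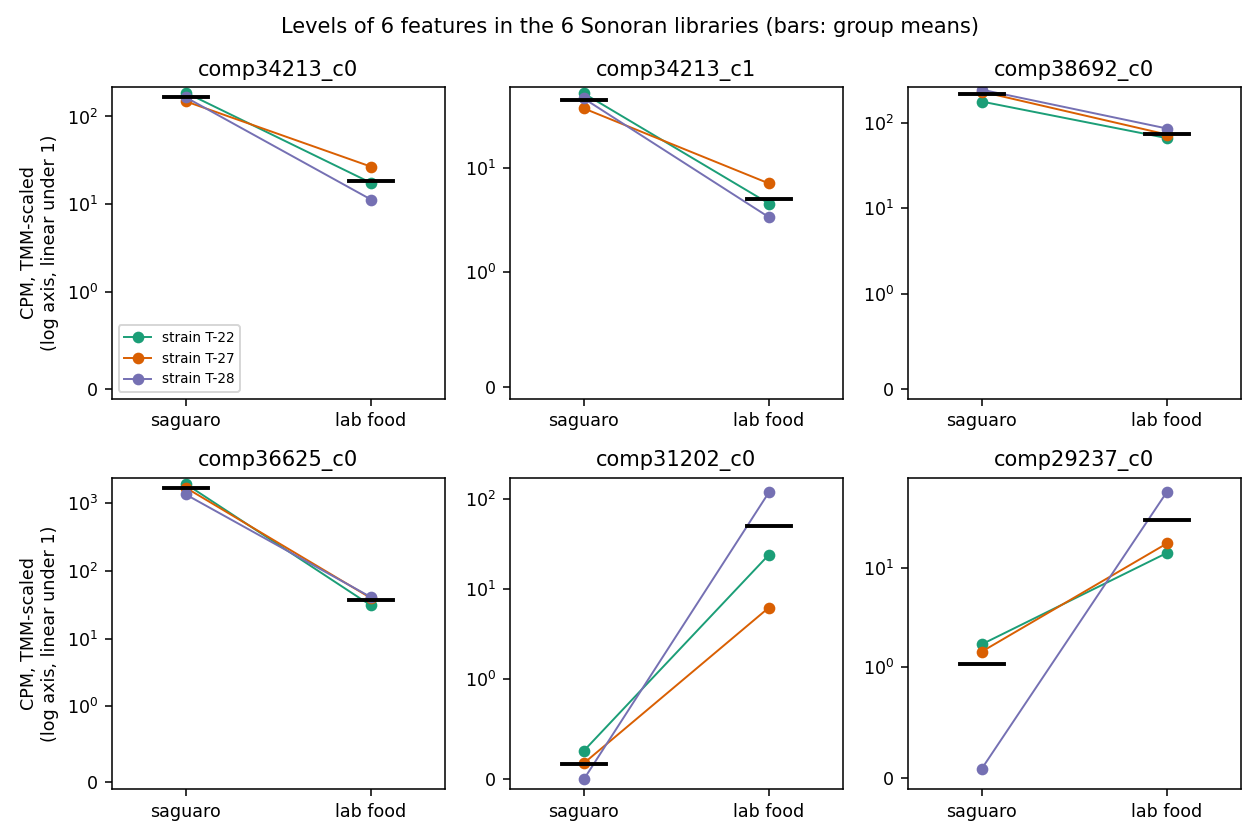
CPM of 6 features (TMM-scaled, log axis that is linear under 1) in the saguaro and lab food libraries of Sonoran T-22, T-27 and T-28 larvae, with lines joining the libraries of a strain and bars at the group means. The libraries of both foods are apart in every panel, but the features were chosen on these same values. Of the 6 features, comp31202_c0 and comp29237_c0 spread most on lab food, where T-28 is highest.

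The count of 3 depended on single libraries. Few or no calls were left in some settings: 0 without the lab food library of T-22, T-27 or T-28, without the T-28 saguaro library or without the C-M lab food library, and 1 without the T-22 saguaro library. In those settings the adjusted p of comp34213_c0 ran from 0.0563 to 0.177 (edgeR). Over 30 other settings, whole strains left out among them, comp34213_c0 and comp34213_c1 each lost the call in 10 and comp38692_c0 in 8. The adjusted p of each reached 0.510 (edgeR). The count reached 5 without the T-28 prickly pear library, 6 without the C-9 saguaro library, 8 without the T-27 saguaro library or the C-7 prickly pear library, 17 without the C-9 prickly pear library and 18 without the C-M saguaro library. Adding strain as a replicate block gave 7 calls (0.0559%), 2 higher and 5 lower, of which 1 was among the 3.

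The 6 saguaro and lab food libraries analysed alone gave a far longer list. There 484 features rose on saguaro and 173 fell, 6.04% of 10877 tested (4.45% higher and 1.59% lower; edgeR, adjusted p below 0.05). All 3 features of the 18-library analysis were among those that rose. The rises were large: their median log2 fold change was 2.14, and 291 of the 484 exceeded log2 2. The falls were smaller, with a median of -1.31 and 38 of 173 past log2 -2. The lists lay at unlike abundance, so these sizes are not compared at a like level. On Sonoran lab food the median CPM was 0.81 to 1.13 for the 484 and 52.4 to 73.1 for the 173. On Sonoran saguaro it was 3.66 to 6.09 and 19.8 to 28.8. This list also hung on single libraries. It had 2 calls without the T-22 saguaro library, 1, 3 and 9 without the lab food library of T-22, T-27 or T-28, 431 without the T-28 saguaro library and 1083 without the T-27 saguaro library. Leaving out whole strains (T-22, T-27 or T-28) gave 0, 4 and 2. With counts thinned to the smallest library, 148 rose and 50 fell.

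**Figure D2:**
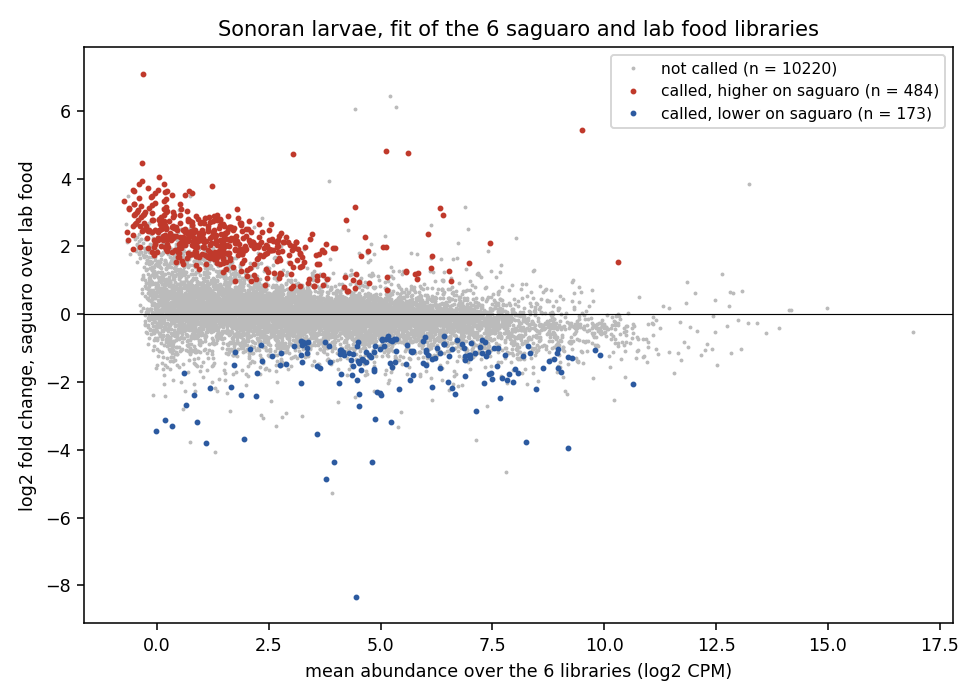
Log2 fold change of saguaro over lab food against mean abundance (log2 CPM) for 10877 features in the 6 Sonoran libraries, with the 484 called higher in red and the 173 called lower in blue. The higher calls crowd at low abundance and the lower calls lie mostly at middle abundance.

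Among the called features of at least 5 CPM the largest rise was that of comp36625_c0, singled out after its values were seen. It had 1917, 1687 and 1341 CPM on saguaro, against 30.9, 39.7 and 40.9 CPM on lab food in T-22, T-27 and T-28. The foods did not come near each other in any strain. The log2 fold change was 5.44 (SE 0.26, adjusted p = 0.000710, edgeR, 6 libraries), and the call was lost only without strain T-22 among 15 other settings for the 6 libraries (adjusted p = 0.201, edgeR). With all 18 libraries it was 5.47 and missed the threshold (SE 0.90, adjusted p = 0.0506, edgeR). Santa Catalina C-M, C-7 and C-9 had 1688, 1035 and 1953 CPM on saguaro, against 48.6, 57.7 and 28.5 CPM on lab food. There too every saguaro library was above every lab food library (log2 fold change 5.12, SE 0.88, adjusted p = 0.0593, edgeR, 18 libraries). A second feature seen in the same way, comp14084_c0, had 108, 44.4 and 80.1 CPM on Sonoran saguaro, against 2.41, 3.43 and 2.16 CPM on Sonoran lab food. It rose by log2 4.83 (SE 0.39, adjusted p = 0.0108, edgeR, 6 libraries). With all 18 libraries it was 4.86 and was not called (SE 1.25, adjusted p = 0.173, edgeR). In Santa Catalina it had 197, 81.2 and 1.03 CPM on saguaro, against 3.57, 0.835 and 0.425 CPM on lab food, so C-9 stayed near its lab food level. Neither rise was particular to saguaro. On Sonoran prickly pear comp36625_c0 had 611, 1100 and 136 CPM in T-22, T-27 and T-28, and comp14084_c0 had 107, 80.9 and 35.4 CPM. Against lab food both were called there (adjusted p = 0.00978 and 0.0169, edgeR, 18 libraries).

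A single feature, comp38686_c0, had at least 10 counts in every saguaro library and 0 in every lab food library, and none had the opposite pattern. It was named for this after its values were seen. Its counts on saguaro were 14, 15 and 15, or 1.68 ± 0.627 CPM (SD, n = 3), at least 19.8-fold higher on saguaro when lab food is set at a floor of 3 counts over its 3 libraries together. Because these counts chose it, no test is given. The same strains on prickly pear had 48, 14 and 47 counts. Absence on lab food did not extend to Santa Catalina, where C-M, C-7 and C-9 had 48, 68 and 2 counts on lab food. On saguaro those strains had 0, 33 and 2.

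In the other direction, comp31202_c0 had 0.284, 0.160 and 0 CPM on saguaro (3, 1 and 0 counts), against 24.1, 6.24 and 119 CPM on lab food in T-22, T-27 and T-28. It was next to absent in all 3 saguaro pools, and its lab food levels spanned a wide range. Its log2 fold change was -8.35 (SE 1.49, adjusted p = 0.0272, edgeR, 6 libraries), a size that depends on the prior count because the saguaro libraries held so few counts. The size also hung on the strain, at -5.96 without T-28 and -9.77 without T-22. comp29237_c0 had 1.71, 1.44 and 0.0872 CPM on saguaro, against 14.1, 17.5 and 57.8 CPM on lab food. It fell by 4.87 on the log2 scale (SE 0.85, adjusted p = 0.0256, edgeR, 6 libraries), with -3.32 without T-28 and -5.87 without T-22. With all 18 libraries neither was called (adjusted p = 0.168 and 0.155, edgeR). Within the 6, both calls were lost without the T-22 saguaro library (adjusted p = 0.0748 for comp31202_c0 and 0.0652 for comp29237_c0, edgeR) or any single lab food library (adjusted p = 0.0636 to 0.0886, edgeR), and that of comp31202_c0 also without the T-28 saguaro library (adjusted p = 0.0607, edgeR).

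Calls were unevenly spread over abundance. Features were classed by mean CPM over all 18 libraries, a level that also grows with transcript length. Under 5 CPM, 252 of 3279 features tested rose and 18 fell (7.69% and 0.549%). Between 5 and 50 CPM, 209 of 5176 rose and 85 fell. Between 50 and 500 CPM the balance turned, with 21 of 2157 higher and 67 lower (0.974% and 3.11%). At 500 CPM or more, 2 of 265 rose and 3 fell. The median log2 fold change ran from 0.22 in the lowest class through 0.01 and -0.16 to -0.40 in the highest (6 libraries). With library totals alone the same medians were 0.53, 0.32, 0.15 and -0.09, so the order of the classes held. The balance of calls turned in both upper classes, to 83 higher and 53 lower at 50 to 500 CPM and to 14 higher and 5 lower at 500 CPM or more.

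**Figure D3:**
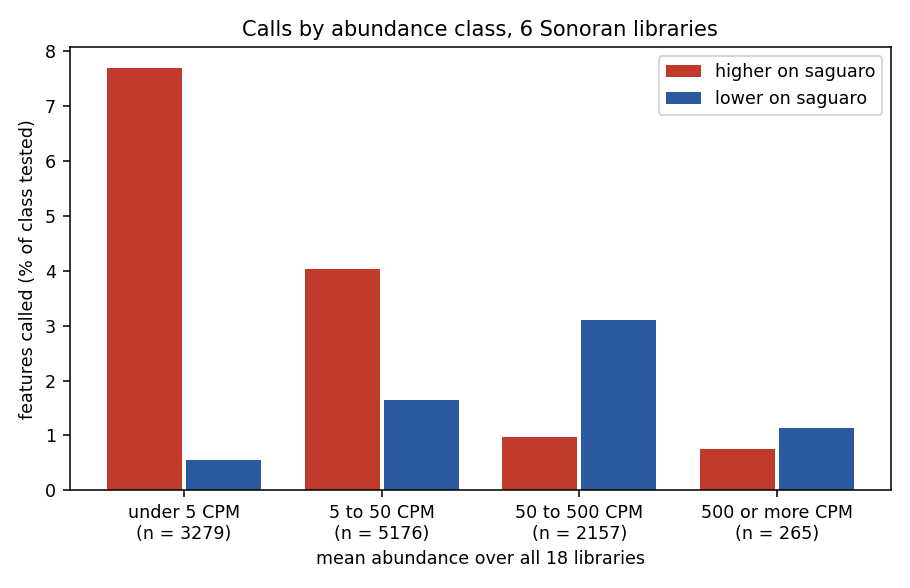
Features called higher (red) and lower (blue) on saguaro as a percentage of those tested in each class of mean CPM over all 18 libraries, from the 6 Sonoran libraries. Higher calls make up 7.69% of the class under 5 CPM and 0.755% of the class at 500 CPM or more.

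The most abundant features did not give up a steady share of the library. Features at 500 CPM or more held 63.4%, 62.8% and 58.4% of counts on saguaro, against 63.0%, 64.2% and 60.6% on lab food in T-22, T-27 and T-28. The groups overlap, and the mean difference was -1.05 ± 1.38 percentage points (SD, n = 3 strains). Features of 5 to 50 CPM held 8.49%, 8.82% and 10.5% on saguaro, against 8.18%, 7.76% and 8.13% on lab food. Each strain was higher on saguaro there, with a mean difference of 1.25 ± 1.05 percentage points. An exact sign-flip test over 3 strains cannot go below p = 0.25. The 10 features with most counts took 26.0% to 30.1% of a saguaro library and 24.0% to 27.1% of a lab food library.

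Counting strains rather than testing leaned the same way as the 6-library calls. The count used the same 6 libraries, also on the TMM scale, so it is no separate support. Of 12514 features, 783 were higher on saguaro by over log2 1 in each of T-22, T-27 and T-28 (6.26%), and 113 were lower by that much in each (0.903%). Of the 783, 576 averaged under 5 CPM. By no overlap alone, 2336 features had all 3 saguaro libraries above all 3 lab food libraries (18.7%) and 1518 had them below (12.1%). The strains differed in how many features moved. Past log2 1 in either direction T-22 had 1566 higher and 911 lower, T-27 1777 and 481, and T-28 2103 and 1470.

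Of the 12153 components of the assembly, 9933 held 1 feature, and 1659 had 2 or more features tested in the 6 libraries. The 657 calls lay in 634 components, of which 20 held 2 or more called features. In all 20 the called features moved in the same direction. Features of a component can share reads, and most calls were higher. How often tested features agree over the 1659 components was not counted.

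The 484 features that rose held 0.848%, 0.917% and 0.923% of counts on saguaro, against 0.179%, 0.207% and 0.175% on lab food in T-22, T-27 and T-28. These shares describe the choice and test nothing. In the 12 libraries that did not choose them, the same features held 0.866% to 1.33% on Sonoran prickly pear and 1.10% to 1.35% on Santa Catalina prickly pear. On Santa Catalina saguaro they held 0.419%, 0.718% and 0.394% in C-M, C-7 and C-9, against 0.635%, 0.676% and 0.195% on Santa Catalina lab food. By this share the C-9 lab food library sat at the level of Sonoran lab food. Those of C-M and C-7 sat between Sonoran lab food and Sonoran saguaro. A summed share weighs features by their counts: comp36625_c0 alone had 22804 counts on C-9 saguaro, against 335 on C-9 lab food. In C-M, C-7 and C-9 the median CPM of the 484 was 0, 5.17 and 1.16 on saguaro, against 7.36, 6.49 and 1.45 on lab food. On Sonoran saguaro that median was 3.79, 6.09 and 3.66 in T-22, T-27 and T-28. The 173 features that fell held 1.06% to 1.17% on Sonoran saguaro, against 2.22% to 3.03% on Sonoran lab food. They held 0.941% to 1.12% on Sonoran prickly pear, which did not choose them.

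**Figure D4:**
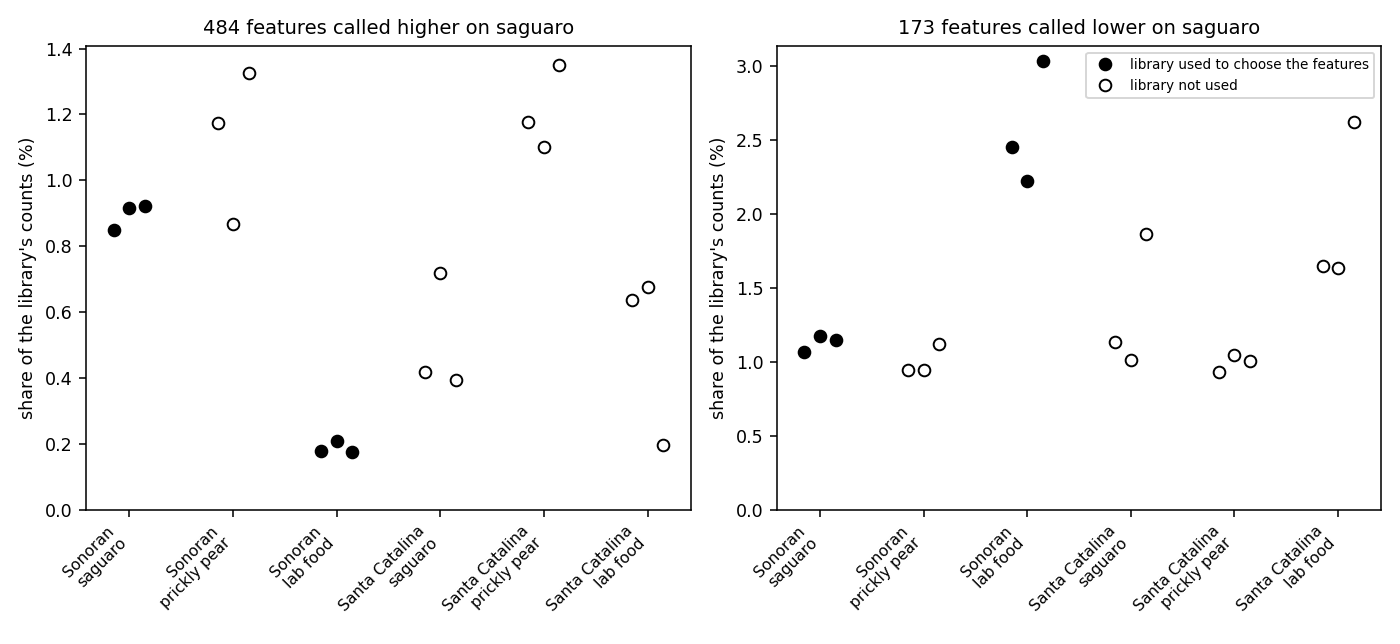
Share of each library's counts (%) held by the 484 features called higher (left) and the 173 called lower (right) on saguaro in Sonoran larvae, for all 18 libraries by population and food. Filled points are the 6 libraries that chose the features, and in the left panel all 3 Sonoran lab food libraries lie near 0.2% together with 1 Santa Catalina lab food library.

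In Santa Catalina larvae most of the 484 features were lower on saguaro than on lab food. The median log2 ratio of saguaro to lab food over the 484 was -4.95 in C-M, -0.34 in C-7 and -0.23 in C-9, beside -0.07, 0.02 and 0.01 over all 10877 features. By strain, 30, 68 and 160 of the 484 were higher on saguaro (6.20%, 14.0% and 33.1%), beside 46.0%, 53.2% and 51.7% of all features. In the C-M saguaro library 313 of the 484 had no count, and it was the lowest of all 18 libraries for 398 of them (82.2%), beside 27.3% of all features. Setting C-M aside leaves the medians of C-7 and C-9, both below 0 by less than log2 0.5. Over the 173 features that fell, the medians were -0.02, -0.15 and -0.12 in C-M, C-7 and C-9. Their summed share of counts was 1.13%, 1.01% and 1.86% on Santa Catalina saguaro, against 1.65%, 1.63% and 2.62% on Santa Catalina lab food. That share was lower on saguaro in each of the 3 strains, the direction in which these features were chosen in Sonoran larvae. It weighs features by their counts. Feature by feature, 85, 69 and 76 of the 173 were higher on saguaro (49.1%, 39.9% and 43.9%), beside the same 46.0%, 53.2% and 51.7% of all features. C-M thus lay above its share of all features, and C-7 and C-9 lay below theirs. In bulk larvae, fewer cells of a type and less RNA per cell cannot be told apart. The part that the C-M saguaro library plays in any difference between populations was not tested beyond leaving it out.

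**Figure D5:**
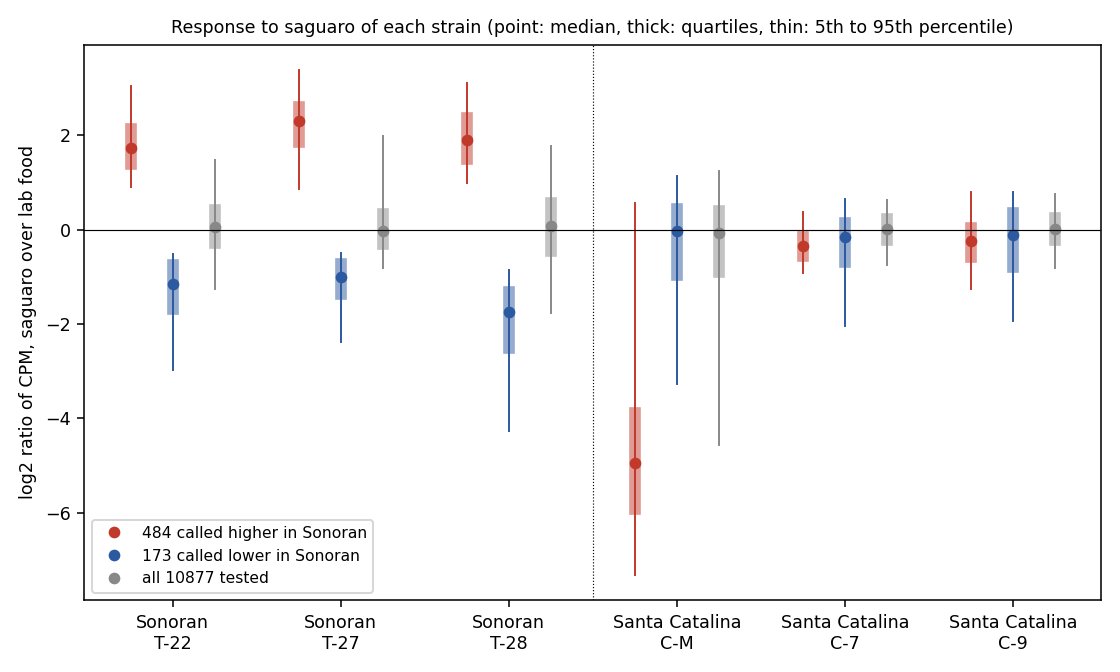
Log2 ratio of CPM, saguaro over lab food, in each strain for the 484 features called higher, the 173 called lower and all 10877 tested in the 6 Sonoran libraries (points are medians, thick bars quartiles, thin bars the 5th to 95th percentile). Sonoran strains chose the features, and the 484 have medians of -4.95, -0.34 and -0.23 in Santa Catalina C-M, C-7 and C-9.

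The difference between the populations in response was tested directly, as Sonoran saguaro minus lab food less the same in Santa Catalina. No feature was called (0% of 12514, edgeR, with 2300 at an unadjusted p under 0.05), while DESeq2 called 327 higher and 50 lower in Sonoran. Without the C-7 saguaro library edgeR called 1699, of which 1441 were higher in Sonoran, and without the C-M saguaro library it called 0. The features with the smallest p and at least 5 CPM were comp34418_c3 and comp38520_c1 on the positive side. comp34418_c3 had log2 ratios of 1.26, 2.39 and 1.21 in T-22, T-27 and T-28, against -1.13, -0.70 and -0.60 in C-M, C-7 and C-9, a difference of 2.46 (SE 0.46, adjusted p = 0.201, edgeR). comp38520_c1 had 1.51, 0.91 and 1.15 in the Sonoran strains, against -0.72, 0.01 and -0.53 in the Santa Catalina strains (difference 1.65, SE 0.34, adjusted p = 0.201, edgeR). On the negative side comp18483_c0 differed by -0.63 (SE 0.14, adjusted p = 0.201, edgeR), and by -0.10 with library totals alone (adjusted p = 0.817, edgeR). There comp14503_c0 had 1, 0 and 1 counts on Sonoran saguaro, against 66, 1 and 1213 on Sonoran lab food, and 0, 2 and 216 counts on Santa Catalina saguaro, against 3, 0 and 0 on Santa Catalina lab food. Its counts come from single libraries and no fold is given. Each of the 4 passed the threshold in 2 of 27 other settings, DESeq2 and leaving out the C-7 saguaro library.

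The 3 features called in the 18-library analysis did not follow the 484. In Santa Catalina, comp34213_c0 rose by log2 2.94 (adjusted p = 0.0389), comp34213_c1 by 2.82 (adjusted p = 0.0389) and comp38692_c0 by 1.27 (adjusted p = 0.0404, edgeR). These estimates include the C-M saguaro library. In C-7 and C-9 alone the log2 ratios were 3.21 and 2.45 for comp34213_c0, 2.92 and 2.21 for comp34213_c1 and 0.96 and 1.62 for comp38692_c0. comp34213_c0 had 412, 188 and 259 CPM on Santa Catalina saguaro, against 44.4, 20.1 and 47.4 CPM on Santa Catalina lab food. The tests of the difference between populations gave 0.23 (SE 0.59), 0.36 (SE 0.60) and 0.27 (SE 0.29), with adjusted p of 0.868, 0.788 and 0.660 (edgeR). Of all features, 7 were called on saguaro in Santa Catalina (0.0559%). The 5 that rose there include these same 3 features, and comp34213_c0 and comp34213_c1 moved as a unit. All 5 had positive Sonoran log2 fold changes, from 0.51 to 3.18, and both that fell there had negative ones, -1.64 and -0.41. How often the signs of all features match between the populations was not counted.

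By calls, prickly pear gave Sonoran larvae the wider change, with 3618 features called against the same lab food libraries (28.9%), beside 3 on saguaro. At an unadjusted p under 0.05 the counts were 5577 and 2370 (edgeR, 18 libraries). The count of 3 depended on single libraries, and leaving out libraries was not run for prickly pear against lab food. Because both comparisons share the lab food libraries, the values stand side by side only. The 484 features had a median log2 fold change of 2.18 on saguaro and 2.65 on prickly pear, and the 173 had -1.28 and -1.92 (18 libraries). comp34213_c0 had 86.4, 69.8 and 101 CPM on prickly pear in T-22, T-27 and T-28, below each of its saguaro values. Tested directly, its log2 difference of saguaro from prickly pear was 0.97 (SE 0.42, adjusted p = 0.335, edgeR). comp38692_c0 had 158, 201 and 208 CPM on prickly pear (log2 difference 0.19, SE 0.20, adjusted p = 0.727, edgeR).

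A single feature differed between the cacti in Sonoran larvae (0.00799%, edgeR, 18 libraries, 1676 at an unadjusted p under 0.05), while DESeq2 called 214 higher and 48 lower on saguaro. comp39297_c4 had 2707, 2465 and 1409 CPM on saguaro, against 474, 706 and 344 CPM on prickly pear in T-22, T-27 and T-28. On lab food the strains had 557, 889 and 772 CPM. Each strain was thus higher on saguaro than on either other food. The log2 difference from prickly pear was 2.11 (SE 0.29, adjusted p = 0.0411, edgeR), and from lab food 1.57 (SE 0.29, adjusted p = 0.0613, edgeR). In Santa Catalina it had 370, 285 and 379 CPM on saguaro, against 248, 284 and 280 CPM on lab food. The call against prickly pear was lost in 18 of 29 other settings, among them the replicate block (adjusted p = 0.0600, edgeR), library totals alone (adjusted p = 0.0814, edgeR) and leaving out the C-M saguaro library (adjusted p = 0.0624, edgeR). Leaving out the T-22 saguaro library gave adjusted p = 0.175, and the T-22 prickly pear library 0.591 (edgeR). The other features of this component tested against lab food had log2 fold changes of -0.10, -1.08, -0.09 and -0.21, none called.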

How the data were processed

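Larval mRNA reads went into a de novo Trinity assembly, and the sequences of a gene were merged for its count, per the series' design text. The deposited values are whole-number counts for 15947 features, which the authors did not normalize as far as the totals show. edgeR is named in the submitters' processing notes, with no version. No counting program or filter is named there, and whether the values were rounded is not known. Every library was split over both sequencing lanes, per the labels' protocols.

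The tests ran in edgeR 4.0.16 under R 4.3.3, after filterByExpr on the groups (12514 features with 18 libraries, 10877 with 6), TMM factors, group means and the quasi-likelihood F test, called at a Benjamini-Hochberg adjusted p below 0.05. The main design used all 18 libraries (12 residual degrees of freedom), and the 6 libraries alone left 4. The SE is the log2 fold change over the square root of F. Strain ratios used log2 CPM with a prior count of 2. DESeq2 1.42.0, other scalings, no filter, thinned counts, the replicate block and leaving out libraries were alternatives. The fit was also run on simulated counts drawn with its own estimates of spread and no strain effect. That run cannot speak to how the calls depend on single libraries.

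The strain label pairs the foods. Deviations from the group means correlated at 0.101, 0.113 and 0.152 between the saguaro and lab food libraries of T-22, T-27 and T-28. No library repeated another (between libraries of a group, chi-square over its degrees of freedom was at least 41.6). Floors cover counting error only, since the reads carry no molecular identifiers and are not independent molecules.

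Features were named by a rule: per comparison, up to 2 in each direction with the largest fold change among those called, with no overlap and a mean of 5 CPM in the higher group, empty places being filled from the 6 libraries alone; all where 5 or fewer were called; and, for the population difference, the smallest p. The comparison, lists and alternatives were chosen with earlier results of these data known. Gene lists by symbol could not be used.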

Additional observations from a re-analysis of the deposited data

Results flagged for a closer look

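Of the named features, 2 went one way in all 3 Sonoran strains and the other way in all 3 Santa Catalina strains. Both were named for a small p of the population difference, so the pattern follows in part from the choice. How many of all features show it was not counted. For comp34418_c3 the saguaro response of Sonoran larvae exceeded that of Santa Catalina larvae by log2 2.46 (adjusted p = 0.201, edgeR). For comp18483_c0 the same difference was -0.63 (adjusted p = 0.201, edgeR), and its strain ratios were -0.24, -0.15 and -0.32 in Sonoran, against 0.32, 0.32 and 0.52 in Santa Catalina. These ratios are on the TMM scale. With library totals alone the difference was -0.10 for comp18483_c0 (adjusted p = 0.817, edgeR) and 2.94 for comp34418_c3 (adjusted p = 0.162, edgeR). Neither difference passed the edgeR test. Groups of 3 libraries were too small for a rule that flags single outlying libraries, so none was used here. The C-M saguaro library, described above, stood apart without such a rule.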

How the results depend on the processing

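No log2 fold change of a named feature that was run through the other settings turned its sign. Among those not run were comp14084_c0, comp38686_c0 and the change of comp39297_c4 against lab food. The 3 calls on saguaro against lab food with 18 libraries became 9 with library totals alone, 273 with DESeq2, 7 with strain as replicate block, 7 with thinned counts, 657 with the 6 libraries alone, 701 with the 6 libraries and a replicate block and 1201 with the 9 Sonoran libraries; leaving out a library or strain gave 0 to 18. The 657 of the 6 libraries, whose alternatives were added after seeing the data, became 1118 with library totals alone (987 higher, 131 lower), 1426 with DESeq2 and 198 with thinned counts, and 0 to 1083 with a library or strain left out. The 0 calls of the population difference became 377 with DESeq2, stayed at 0 with the replicate block, and ran from 0 to 1699 with a library or strain left out. The 1 call between the cacti became 2 with RLE size factors, 2 with no filter, 0 with library totals alone, 262 with DESeq2, 0 with the replicate block, 26 with the 6 saguaro and prickly pear libraries, 454 with the 9 Sonoran libraries, and 0 to 8 with a library or strain left out. The median log2 fold change became 0.36 with library totals alone, and was 0.04 to 0.09 with a strain left out. The share difference at 500 CPM or more was -1.81 to -0.46 percentage points with a strain left out. The 896 features past log2 1 in every Sonoran strain became 1823 past log2 0.5. The T-27 saguaro library limits depth. The cause of these shifts was not tested.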
